A study of Mus musculus with 4 samples.

Results

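Pericentric heterochromatin in the mouse genome is built on major satellite repeats that flank each centromere. SUV39H1 and SUV39H2 place trimethylation on lysine 9 of histone H3, HP1 proteins (encoded by Cbx1, Cbx3 and Cbx5) bind that mark through a chromodomain, TRIM28 brings the methyltransferase SETDB1 to its targets, and ATRX with DAXX deposits the histone variant H3.3. ZFP296 is a zinc finger protein that has been found at heterochromatin. In oocytes ATRX is known to be needed at pericentric domains for chromosomes to align on the meiotic spindle.

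The 10 genes for these proteins were taken by symbol and NCBI gene ID from a table of 17374 genes and 45505 RefSeq transcripts. The table lists 31 transcripts for them. The rule uses symbols and no measured value, but Zfp296 is a gene that the study itself singled out from these libraries, so its values are no independent evidence. All 10 gene totals and 25 of the 31 transcripts passed the filter on low counts. The unit is the gene total, which is the sum of estimated read counts over the transcripts of a gene, or its TPM, a level corrected for transcript length and scaled to the same sum in each library.

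The samples were oocytes at the germinal vesicle stage from non-primed females on postnatal day 16. Control oocytes were not irradiated (2 libraries), and the other group received 5 Gy of γ-irradiation from a cesium source and was collected 24 h later (2 libraries). Both groups came from C57/Bl6/DBA2J F1 females, with no engineered allele named, were stripped of cumulus cells and zona, and were kept in medium with milrinone, which holds meiotic arrest. Each library pools oocytes, and mRNA was isolated with oligo(dT), so the values describe polyadenylated transcripts of a pool. The libraries came from 2 independent experiments. The series' own text describes control cells as sequenced directly, and no source used here gives them a time in culture that matches the 24 h after irradiation, so irradiation and time in culture cannot be told apart. The labels tie no library to an animal, and the p-values measure only the spread between these samples. In pooled oocytes, a smaller share of cells with a transcript and less of that transcript in each cell cannot be told apart.

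The libraries held from 33349466 to 37232818 estimated counts. Irradiated library 2 stood apart from the other 3: its correlation with each of them over log2 CPM (counts scaled to library size) was 0.981 to 0.984, against 0.992 to 0.993 among the others, across 12569 genes that are not independent replicates. Its TMM factor (a scaling factor for composition) was 1.19, against 0.923 to 0.975. All 12 oocyte markers were listed, with summed levels of 29291 to 31731 TPM. Of 12 granulosa and cumulus cell markers 7 were listed and 4 could be tested, with summed levels of 16.8 and 19 TPM in control and 16.7 and 22.3 TPM in irradiated libraries 1 and 2. The 4 tested were Cyp19a1 (8.79 to 10.2 TPM), Nr5a2 (3.53 to 7.43 TPM), Fshr (1.66 to 2.89 TPM) and Kitl (1.45 to 2.07 TPM), and the other 3, Inha, Inhba and Hsd17b1, were at or under 0.31 TPM in every library. The part of granulosa cell RNA in the results was not tested.

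The related genes could in principle exchange reads, so the longest stretches of identical coding sequence between paralogs were read from GENCODE transcripts on GRCm38. They are shown because a read of 100 bases that lies within such a stretch could not be placed. Between Cbx1 and Cbx5 the longest was 20 bases, at chr11:96800862-96800881 on the plus strand in Cbx1 and chr15:103213138-103213157 on the minus strand in Cbx5, in exon 2 of both. Between Suv39h1 and Suv39h2 it was 26 bases, at chrX:8063976-8064001 and chr2:3462546-3462571, both on the minus strand and in exon 4. The longest stretches that Cbx3 shares were 11 bases with Cbx1 and 14 bases with Cbx5. No letter is capitalised, since the stretches are identical throughout.
Cbx1 and Cbx5: gaggaatatgtggtggaaaa
Suv39h1 and Suv39h2: cacctacctctttgacctggactacg
Cbx3 and Cbx5: aatacttgggaacc
Every stretch was shorter than a read. Over the aligned coding sequences, identity was 71.5% for Cbx1 and Cbx3, 70.2% for Cbx1 and Cbx5, 70.6% for Cbx3 and Cbx5 and 61.8% for Suv39h1 and Suv39h2.

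Sharing with other genes was found for 5 of the 10. Every window of 100 bases was looked up in all other genes on both strands, for GENCODE transcripts paired with a listed RefSeq transcript. These leave out the transcripts that led in TPM for Cbx1, Cbx5 and Suv39h1, XM_006523581.3 of Daxx and XM_030242864.1 of Zfp296. The sharing of those transcripts was not examined. Cbx3 had 428 of 1790 windows (23.9%) in another gene, including 6 processed pseudogenes of its own, Suv39h1 had 532 (16.9%) and Zfp296 164 (11.5%), while Setdb1 had 4.88% and Suv39h2 1.96%. The partners of Suv39h1 (Gm14820), Suv39h2 (Dclre1c) and Zfp296 (Gemin7) lie on the opposite strand. So do 2 partners of Cbx3, Gm49164 (409 windows, the most of any) and Als2cr12 (111 windows), and Gm37500 (78 windows) for Setdb1. Whether the counting used strand is not given in the sources used here. Cbx1, Cbx5, Trim28, Atrx and Daxx had 0 shared windows in the transcripts searched. The totals of 9 members were whole numbers of reads, within 0.05 of a count, in all 4 libraries, and that of Suv39h2 in 1, where 74.1% of genes with a count in each library were whole in all 4. The level of Cbx3 is uncertain to the extent that reads from its pseudogenes, Gm49164 or Als2cr12 were placed on it.

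The 10 genes spanned a 33.5-fold range of mean level in these oocytes. Suv39h1 was the highest of them at 87.7 TPM over the 4 libraries, followed by Cbx1 (78.6 TPM) and Zfp296 (74.6 TPM), and these 3 lay between percentiles 88.7 and 89.8 of all genes tested. Cbx3 was at 27.1 TPM, and Atrx, Cbx5, Trim28, Suv39h2 and Setdb1 were at 17.5, 16.4, 14.9, 14 and 11 TPM. Daxx had the lowest mean at 2.62 TPM, percentile 42.0. The ranges over libraries overlapped between neighbours among the first 3 and from Atrx down to Suv39h2, so ranges alone do not order neighbours within those 2 sets. Compared within each library, Suv39h1 was above Cbx1 in every one, and the other neighbours of those sets changed order between libraries. For Cbx1 and Zfp296 the order divided by condition, with Cbx1 above in both control libraries and below in both irradiated libraries. Atrx (16.2 to 18.4 TPM) was above Suv39h2 (13.3 to 14.9 TPM) in every library. The ranges did not overlap between Zfp296 and Cbx3, Cbx3 and Atrx, Suv39h2 and Setdb1, or Setdb1 and Daxx.

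**Figure D1:**
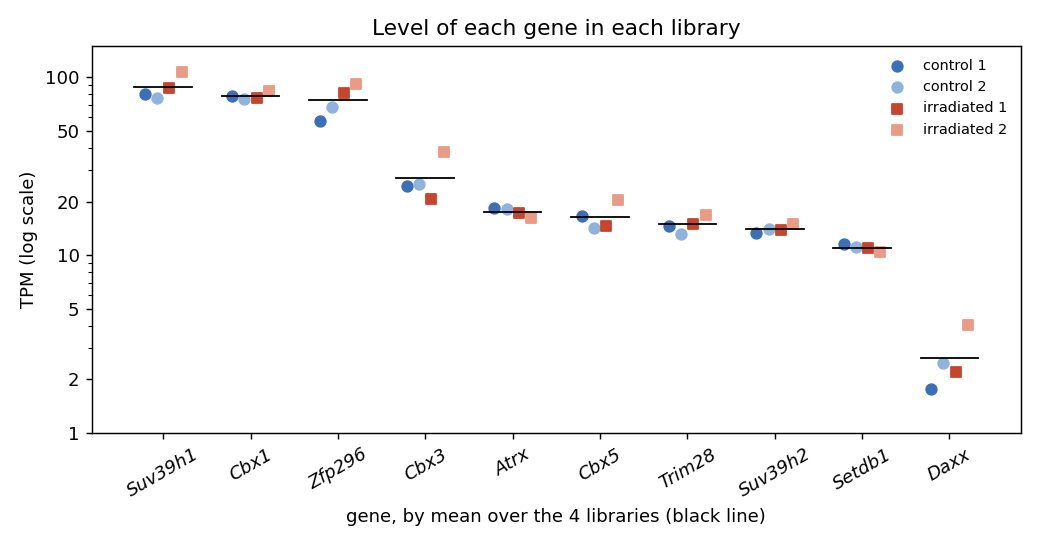
Level of the 10 genes in TPM (vertical axis, log scale) in 2 control libraries (blue circles) and 2 irradiated libraries (red squares), with the mean over the 4 libraries as a black line. The 3 highest genes have means of 74.6 to 87.7 TPM and Daxx 2.62 TPM, and irradiated library 2 is the highest of the 4 for 8 of the genes and the lowest for Atrx and Setdb1.

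Whether irradiation changes the mRNA of these proteins was asked by comparing the 2 irradiated with the 2 control libraries. No gene total was called changed. The call required both an adjusted p under 0.05 and a change of more than 2 log2 units, and 0 of 10 members passed, where 0.00796% of all 12569 genes tested did. At an unadjusted p under 0.05 the count was again 0 of 10, against 5.93% of all genes (edgeR's quasi-likelihood test, 2 against 2 libraries). Fold changes, as log2 of irradiated over control, ran from -0.33 for Atrx to 0.31 for Daxx, with 4 above 0 and 6 below. Their median was -0.027, beside 0.010 for all genes with quartiles of -0.17 and 0.22. On normalized counts, 2 of 10 members (Setdb1 and Atrx) were lower in both irradiated libraries than in both control libraries, where 19.8% of all genes were, and 0 of 10 were higher, where 22.1% were. The smallest adjusted p among the 10 was 0.708 (edgeR, Benjamini-Hochberg adjustment), and DESeq2 gave 0.999 for each.

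Scaling bears on the direction of the smallest changes. Without the TMM factors the median log2 fold change of all genes moved to 0.17, and on log2(TPM + 1), with a pseudocount of 1, it was 0.14. In both scalings the totals of Cbx1, Cbx3, Suv39h2 and Trim28 turned from below to above 0. Directions of fold changes below are relative to the TMM scale. Where groups are said to separate in TPM, the share of all genes that do so was not computed, so these separations have no background.

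**Figure D2:**
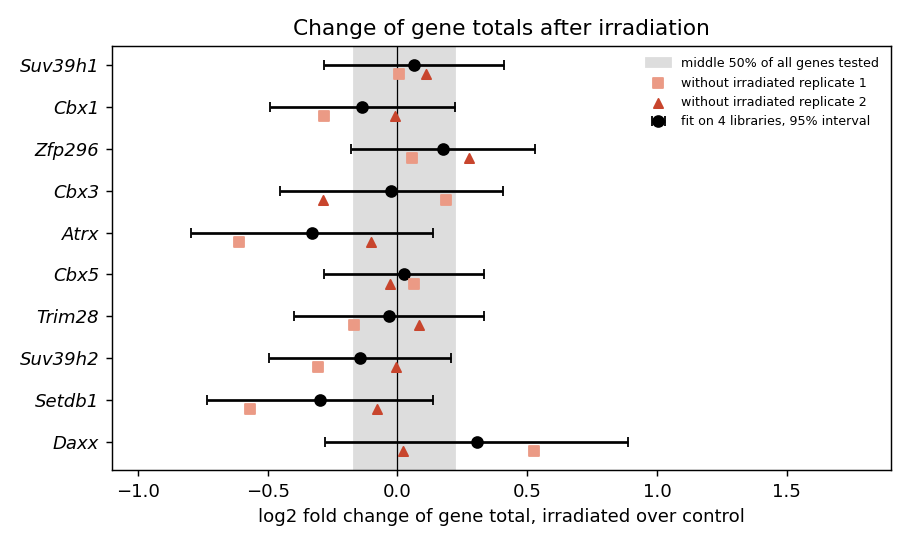
Log2 fold change of each gene total, irradiated over control (horizontal axis), with the fit on 4 libraries and its 95% interval (black), the values without irradiated library 1 (light squares) or library 2 (dark triangles), and the middle 50% of all genes tested (grey). All 10 intervals include 0, and for Atrx, Setdb1 and Daxx the value without irradiated library 2 lies nearer to 0 than the value without irradiated library 1. The reverse holds for Zfp296 and Suv39h1.

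The HP1 genes differed in level from one another more than between conditions. Cbx1 encodes HP1β, and its total (7 transcripts, chr11:96788680-96808982 of GRCm38.p6) was 78.2 and 75.6 TPM in control and 76.8 and 84.0 TPM in irradiated libraries. Cbx3 encodes HP1γ, which is also found in transcribed genes, and reached 24.6 and 25 TPM in control and 20.6 and 38.1 TPM in irradiated libraries. Cbx5 encodes HP1α, with 16.5 and 14.1 TPM in control and 14.5 and 20.5 TPM in irradiated libraries. For each of the 3, irradiated library 2 was the highest and the groups overlapped. Cbx1 made up 65.5% and 65.9% of the summed HP1 TPM in control libraries and 68.6% and 58.9% in irradiated libraries, so the lowest share was again in irradiated library 2.

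Normalized counts, which carry the TMM scaling, gave no separation for HP1 either. Those of Cbx1 were 2290 and 2101 in control and 2181 and 1821 in irradiated libraries, and the log2 change was -0.13 ± 0.15 (SE, n = 2 per group) with a 95% interval of -0.49 to 0.22. Cbx3 gave 1108 and 1059 against 887.4 and 1244, a log2 fold change of -0.023 ± 0.18. The irradiated libraries of Cbx3 thus lay on both sides of the control libraries. Cbx5 gave 861.4 and 798.6 against 813.3 and 876.2, a log2 fold change of 0.026 ± 0.13 with an interval of -0.28 to 0.34. The intervals of these 3 genes lie between -0.49 and 0.41 on the log2 scale.

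The transcripts of the HP1 genes that led in TPM kept similar shares of TPM in every library. NM_001362563.1 held 69.25%, 68.2%, 65.1% and 67.0% of Cbx1 TPM in the control pair and then the irradiated pair. XM_006532102.3 held 19.6% to 20.9% of Cbx1 TPM, and NM_007624.4 held 98.6% to 99.8% of Cbx3 TPM. For Cbx5 the scale decides which transcript leads. The short model XM_006520377.2 held 79.3% to 82.8% of TPM but 17.2% to 20.4% of the estimated counts, and NM_001076789.2 held 12.0% to 14.5% of TPM but 49.3% to 59.8% of counts. The effective length of the first, from counts per TPM, was 5.30% to 5.43% of that of the second. The Cbx5 level in TPM therefore rests largely on a model with few of its reads.

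The SUV39H genes were unequal. Suv39h1 (4 transcripts, chrX:8061171-8074760) reached 80.7 and 76.4 TPM in control and 86.5 and 107 TPM in irradiated libraries, and Suv39h2 (1 transcript, chr2:3455815-3474986) 13.3 and 13.9 TPM in control and 13.8 and 14.9 TPM in irradiated libraries. The ratio of the 2 levels within a library was 6.06 and 5.48 in control and 6.26 and 7.19 in irradiated oocytes. Both irradiated libraries were above both control libraries in TPM of Suv39h1 and in this ratio. On normalized counts the Suv39h1 total overlapped, with 3831 and 3419 in control and 3907.5 and 3673 in irradiated libraries. The log2 fold change of that total was 0.064 ± 0.15 (SE, n = 2 per group) with a 95% interval of -0.28 to 0.41. A ratio within a library does not depend on library scaling. Suv39h2 gave 1525 and 1498.5 against 1507 and 1233, and its log2 fold change was -0.14 ± 0.15. One transcript, XM_006527574.4, held 90.4% and 90.1% of Suv39h1 TPM in control and 92.4% and 92.4% in irradiated libraries.

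Setdb1 and Trim28, whose products work together at sites bound by KRAB zinc finger proteins, were close in level. Setdb1 (3 transcripts, chr3:95323525-95357202) was at 11.6 and 11.1 TPM in control and 10.9 and 10.4 TPM in irradiated libraries. Trim28 (1 transcript, chr7:13024152-13031032) was at 14.7 and 13.1 TPM in control and 15.0 and 16.8 TPM in irradiated libraries. In TPM the groups did not overlap for either gene, with Setdb1 lower and Trim28 higher after irradiation. Normalized counts of Setdb1 were 1434 and 1295 in control and 1293 and 927.7 in irradiated libraries, so control library 2 and irradiated library 1 were almost equal. The log2 fold change was -0.30 ± 0.18 (SE, n = 2 per group) with a 95% interval of -0.73 to 0.14. That of Trim28 was -0.031 ± 0.15, from 1251 and 1051 against 1219 and 1036 normalized counts, which overlap. The value of Setdb1 was -0.077 with irradiated library 2 left out and -0.57 with irradiated library 1 left out.

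The transcripts of Setdb1 were shared out differently from library to library, in each condition. NM_018877.3 held 96.4% and 65.0% of Setdb1 TPM in control and 62.1% and 83.2% in irradiated libraries. NM_001163642.1 was listed at 0 in control library 1 and irradiated library 2 and held 29.3% and 31.4% in control library 2 and irradiated library 1. NM_001163641.1 held 3.63%, 5.67%, 6.5% and 16.8%. In the coding sequence these transcripts differ by 3 bases at chr3:95340063-95340065 on the minus strand, the first bases after the junction that ends exon 11, and the other differences are non-coding. The sequences across that junction, which span chr3:95340050-95340174 with the intron left out, are printed to show how little separates them, with the 3 bases in capitals.
NM_018877.3: cagctgacactgaAAGcttagaaagccaa
NM_001163642.1: cagctgacactgacttagaaagccaa
Only reads over this junction or over the differing non-coding bases near the 5′ end can tell the transcripts apart. The test of isoform usage gave Setdb1 an adjusted p of 1.00 (edgeR diffSpliceDGE, Simes' method, Benjamini-Hochberg adjustment).

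Atrx and Daxx, partners in H3.3 deposition, differed strongly in level and had the lowest and the highest fold change of the 10. Atrx (1 transcript, chrX:105797615-105929372) was at 18.4 and 18.1 TPM in control and 17.3 and 16.2 TPM in irradiated libraries. Daxx (5 transcripts, chr17:33909404-33915590) was at 1.76 and 2.48 TPM in control and 2.19 and 4.06 TPM in irradiated libraries. The groups were separate for Atrx, with both irradiated libraries lower, and overlapped for Daxx. In normalized counts Atrx gave 5164 and 4772 in control and 4631 and 3283 in irradiated libraries, and the log2 change was -0.33 ± 0.20 (SE, n = 2 per group) with a 95% interval of -0.79 to 0.14 and an adjusted p of 0.708 (edgeR's quasi-likelihood test, Benjamini-Hochberg adjustment). Leaving out irradiated library 2 gave -0.10, and leaving out irradiated library 1 gave -0.61.

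Daxx rested on few reads, with counts of 114 and 140 in control and 128 and 226 in irradiated oocytes. Its normalized counts were 116.3 and 151.1 in control and 135.6 and 193.8 in irradiated libraries, and the log2 fold change of 0.31 ± 0.25 had a 95% interval of -0.28 to 0.89. Leaving out irradiated library 2 gave 0.023, leaving out control library 1 gave 0.12 and leaving out control library 2 gave 0.50. The higher irradiated mean thus rests on irradiated library 2, and the size of the change also on the low control library 1. Which transcript led also moved with the library. XM_006523581.3 held 82.7%, 90.9% and 49.5% of TPM in control library 2 and irradiated libraries 1 and 2 and was listed at 0 in control library 1. There, NM_007829.4 (44.9%) and XM_006523582.3 (46.6%) led instead. The level of NM_007829.4 was listed at 0 in irradiated library 1, and NM_001199733.1 held at most 10.6%. At these counts no transcript of Daxx could be followed across libraries.

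Leaving out a library shows how far the changes depend on it. The log2 fold changes of Zfp296 and Suv39h1 moved nearer to 0 without irradiated library 1, to 0.056 and 0.0070. Those of Cbx1, Suv39h2, Setdb1, Atrx and Daxx did so without irradiated library 2. With irradiated library 1 left out, that library alone stands against both controls, and 34.3% of all genes had an adjusted p under 0.05 (edgeR's quasi-likelihood test, the lone library assumed to vary like the control libraries). In that comparison 5 of the 10 members did so too, with Cbx1, Suv39h2, Setdb1 and Atrx lower and Daxx higher, none of them past the fold limit. With irradiated library 2 left out, 0 of 10 did, where 0.791% of all genes did.

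In Zfp296 the shares of the transcripts differed between conditions in these libraries, and the total was not called. The shorter of the 2 listed transcripts of Zfp296, XM_030242864.1, was near 0 in control oocytes and made up a minor share of the gene after irradiation. The other, NM_022409.2, lay at overlapping normalized counts in both groups. Total Zfp296 (chr7:19577287-19580656) was at 56.8 and 67.8 TPM in control and 81.7 and 92.0 TPM in irradiated libraries, with the groups separate. Normalized counts of the total were 2127 and 2399 in control and 2742 and 2371 in irradiated libraries, which overlap. The log2 fold change was 0.18 ± 0.15 (SE, n = 2 per group) with a 95% interval of -0.18 to 0.53. It was 0.28 with irradiated library 2 left out and 0.056 with irradiated library 1 left out. On log2(TPM + 1) the change was 0.48, beside a median of 0.14 for all genes. There limma gave an unadjusted p of 0.0376 and an adjusted p of 0.745.

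The estimated counts of XM_030242864.1 were 4.68 and 5.78 in control and 386.7 and 326.9 in irradiated libraries. Both irradiated libraries thus stood far above both controls, and irradiated library 2 was the lower of the pair. Its share of Zfp296 TPM was 0.335% and 0.383% in control and 20.6% and 16.5% in irradiated libraries, and its share of counts was 0.225%, 0.260%, 14.9% and 11.8%. The fitted log2 fold change was 5.88 ± 0.37 (SE, n = 2 per group), or 59-fold with a 95% interval of 28.5 to 122. In edgeR's quasi-likelihood test this gave an unadjusted p of 0.00014 from the fit across all transcripts and an adjusted p of 0.777. It was therefore not called, as 0% of the 26645 transcripts tested were, with 4.9% at an unadjusted p under 0.05. DESeq2, which called 0.862% of transcripts, gave an adjusted p of 8.56e-13, and edgeR's exact test gave 8.93e-14.

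Control libraries gave NM_022409.2 2108 and 2381 normalized counts and irradiated libraries 2323 and 2123, and its log2 fold change was -0.014 ± 0.12. In the test of isoform usage Zfp296 was the single member with an adjusted p under 0.05 among 6 that could be tested (adjusted p = 0.0145, edgeR diffSpliceDGE with Simes' method), where 0.253% of 6323 genes passed. It kept that without a filter on low counts (adjusted p = 0.0383) and with the F test (0.00788), and lost it with limma's diffSplice (0.464) and when any 1 library was left out (0.175 to 0.476). The share of XM_030242864.1 was nonetheless higher in 2 of 2 irradiated libraries than in either control.

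How reads were divided between the 2 models bears on these values. The effective length of XM_030242864.1, from counts per TPM, was 67.7% of that of NM_022409.2 in both irradiated libraries, so reads given to it weigh more in TPM than in counts. The exon structure of this model was not analysed here, and the bases that set it apart from NM_022409.2 are not shown. Of the windows of NM_022409.2, 164 of 1431 also occur in an antisense GENCODE transcript of Gemin7. The listed total of Gemin7 was 8072 and 7288 counts for control against 7704 and 8156 for irradiated oocytes. The part of such reads in the change of XM_030242864.1 was not tested.

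**Figure D3:**
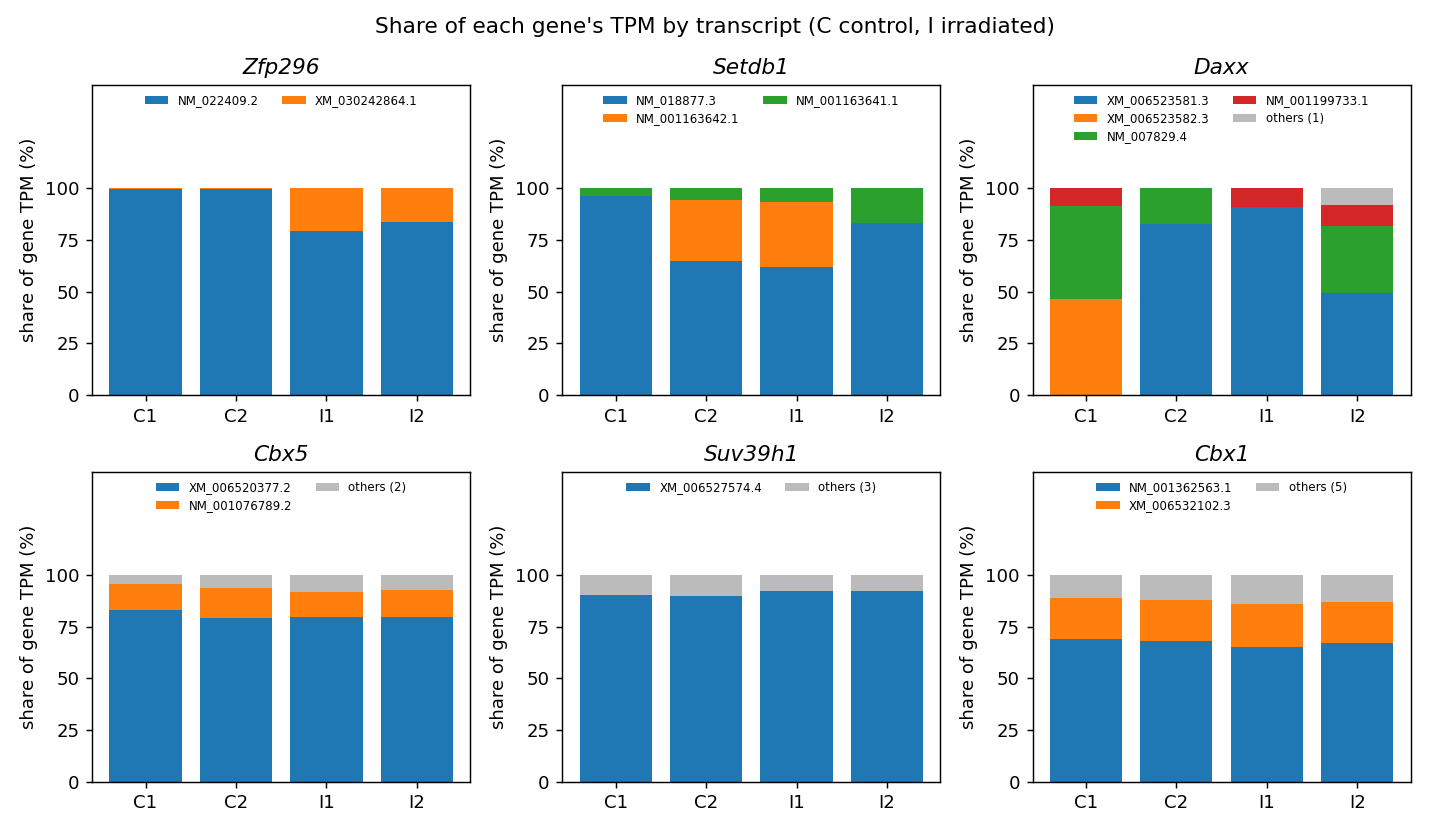
Share of each gene's TPM (vertical axis, percent) held by its named transcripts, with all others in grey, in control (C1, C2) and irradiated (I1, I2) libraries for 6 genes. The shares of Zfp296 divide by condition, with XM_030242864.1 at 20.6% and 16.5% after irradiation, and those of Setdb1 and Daxx change from library to library. The leading transcripts of Cbx5, Suv39h1 and Cbx1 hold similar shares in all 4, with small differences that divide by condition for Suv39h1 and Cbx1.

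None of the genes that act with these proteins was called either. Of 72 genes in 8 lists, 69 were tested, 0 were called, and 5 had an unadjusted p under 0.05 (3 higher and 2 lower), beside the 5.93% of all genes given above. Of all 12569 genes tested, 582 were higher and 163 lower at that limit, so the directions are unequal without any list. The median log2 fold change of the 69 tested genes of the lists was -0.079. Of these 69, the normalized counts of 11 were higher and of 20 lower in both irradiated libraries than in both controls. Of all genes, 22.1% were higher and 19.8% lower.

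Among 9 partners in H3K9 methylation none passed at an unadjusted p under 0.05, and values ran from -0.56 for Mecom to 0.56 for Wiz, the zinc finger partner of the EHMT enzymes, whose TPM of 1.36 in irradiated library 2 stood above 0.49 to 0.61 in the others. Of 9 H3K9 demethylases 2 had lower totals at an unadjusted p under 0.05 and 0 higher. These were Kdm4a, at 1.72 and 2.10 TPM in control and 1.47 and 1.17 TPM in irradiated libraries (log2 fold change -0.70 ± 0.27), and Kdm4d, at 0.26 and 0.35 against 0.19 and 0.14 TPM (-1.02 ± 0.43). Both had an adjusted p of 0.708 (edgeR, Benjamini-Hochberg adjustment). The highest value in that list was 0.15 for Kdm4b.

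Writers of H4K20 methylation, which follows H3K9 methylation at satellites, gave -0.077 for Kmt5b and 0.33 for Kmt5c, with 0 of 3 at an unadjusted p under 0.05. In the list of DNA methylation and its readers, 1 of 11 was higher at that limit and 0 lower, with the lowest value for the maintenance enzyme Dnmt1 (-0.64 ± 0.39). Dnmt1 was at 182 and 170 TPM in control and 162 and 90.1 TPM in irradiated libraries, so the low value was in irradiated library 2. The gene past the limit was Mbd3 (0.40 ± 0.14), named after its value was seen. The list holds Dnmt3l, which the study itself named from these libraries as downregulated and also measured by real-time PCR. As a gene total it did not pass (0.047 ± 0.17). The study's calls were on transcripts, and those of Dnmt3l are not shown here.

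For H3.3 and its chaperones 0 of 11 passed at an unadjusted p under 0.05, from -0.50 for H3f3a, an H3.3 gene, to 0.15 for Hira. H3f3a was at 1102 and 1178 TPM in control and 1155 and 624.1 TPM in irradiated libraries, again lowest in irradiated library 2. The HUSH complex, which works with SETDB1 in silencing, ran from -0.19 for Mphosph8 to -0.018 for Morc2a, with 0 of 4 past that limit. Of the polycomb proteins known to gather at pericentric heterochromatin 8 of 9 could be tested and 0 passed, from -0.25 for Suz12 to 0.18 for Scmh1.

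Satellite and centromere proteins had 14 of 16 genes tested, 2 of them higher and 0 lower at an unadjusted p under 0.05. Hmga1, which binds AT-rich DNA, was at 4.03 and 4.73 TPM in control and 5.41 and 13.9 TPM in irradiated libraries (log2 fold change 0.86 ± 0.30), and Sirt6, a deacetylase that acts at satellites and was named after its value was seen, at 24.3 and 31.9 against 33.9 and 64.5 TPM (0.55 ± 0.21). Irradiated library 2 was the highest for both. The lowest value was -0.44 for Cenpc1. The list includes Ski and Ctcf, which the study named from these libraries, and neither passed as a gene total. The study's calls were on transcripts, and those of Ski and Ctcf are not shown here.

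**Figure D4:**
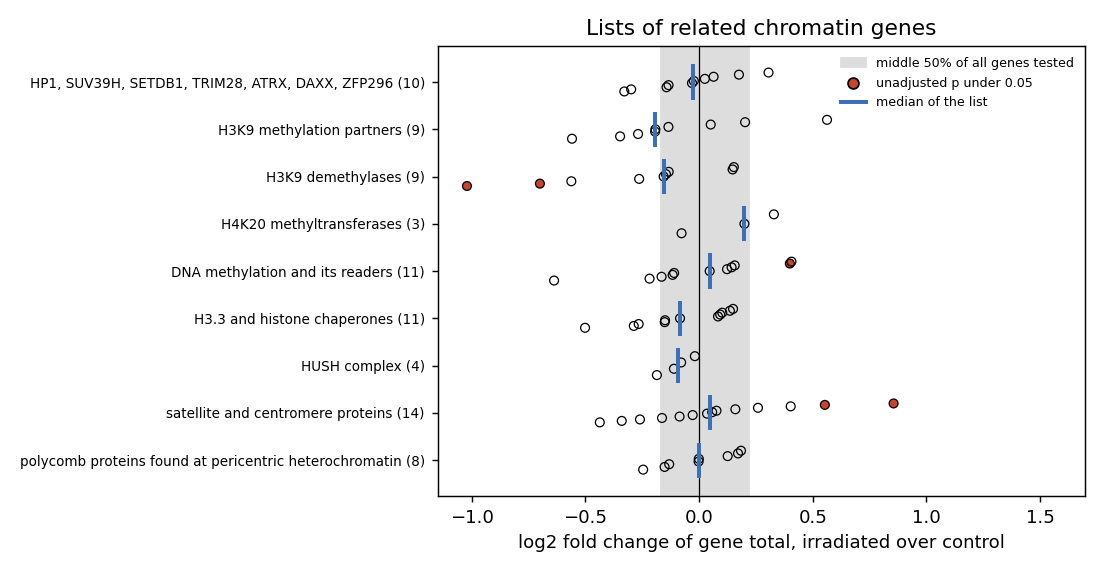
Log2 fold change of gene totals, irradiated over control (horizontal axis), for the 10 genes and for each list of related chromatin genes with its number tested, where filled points have an unadjusted p under 0.05, blue bars are list medians and grey is the middle 50% of all genes tested. The list medians lie between -0.19 and 0.20, and 5 of the 69 related genes are filled.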

How the data were processed

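RNA-seq of 4 libraries was analysed, with groups and replicate numbers from the sample titles. The authors aligned paired-end reads to GRCm38 with Bowtie2; the submitters' processing notes also name HISAT2, RSEM and mm10, with versions not given in the sources used here. The authors deposited an estimated count and a TPM for each RefSeq transcript. A further 10 columns, 4 of FPKM and 6 of averages, were not used. Symbols matched 17323 of 17374 gene IDs in the RefSeq table of GRCm38.p6. Members and gene lists were chosen with earlier results of these data known.

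Rounded counts entered glmQLFit and glmQLFTest of edgeR 4.0.16 (R 4.3.3) after filterByExpr (minimum count 10) and TMM scaling, with Benjamini-Hochberg adjustment over everything tested. Calls required adjusted p below 0.05 and more than 2 log2 units of change. SE is the fold change divided by the root of F. Isoform usage was tested with diffSpliceDGE. Tests were checked on simulated counts whose spread, taken from gene totals, was smaller than that of these transcripts. Normalized counts are counts divided by TMM-scaled library size, relative to its geometric mean. Alternatives were DESeq2 1.42.0, edgeR's exact test, limma 3.58.1 (voom, diffSplice, log2(TPM + 1)), other scalings, no filter, a replicate block, and leaving out each library. Transcripts were named if they held over 10% of a gene's TPM in any library or had an unadjusted p under 0.05, and, of each related list, the genes with the highest and lowest fold change, of which a gene in the DNA methylation list is not reported here. No interval for counting error was computed, and Daxx, Kdm4d and XM_030242864.1 in control libraries rest on few counts. Sequences came from GENCODE M21 (GRCm38).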

Additional observations from a re-analysis of the deposited data

How the results depend on the processing

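Over the 10 gene totals, 105 of 120 alternative values kept their direction and none was called; over 10 named transcripts with more than 3 counts in every library, 100 of 110 kept theirs. With library size alone, log2 fold changes turned to 0.014 for Cbx1, 0.17 for Cbx3, 0.0022 for Suv39h2, 0.12 for Trim28, 0.045 for XM_006532102.3, 0.17 for NM_007624.4, 0.10 for XM_006520377.2 and 0.12 for NM_022409.2. On log2(TPM + 1) they turned to 0.062 for Cbx1, 0.17 for Cbx3, 0.071 for Suv39h2 and 0.18 for Trim28. The median of all genes moved from 0.010 to 0.17 with library size alone and to 0.14 on log2(TPM + 1). When 1 library was left out, values that changed direction ran from -0.29 to 0.19 for Cbx3, -0.032 to 0.076 for Cbx5, -0.020 to 0.14 for Suv39h1, -0.16 to 0.096 for Trim28, -0.27 to 0.075 for XM_006532102.3, -0.29 to 0.23 for NM_007624.4, -0.21 to 0.12 for XM_006520377.2 and -0.10 to 0.080 for NM_022409.2. XM_030242864.1 kept a log2 fold change of 5.59 to 6.12 and was called by DESeq2 (5.91) and edgeR's exact test (5.88) alone.

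Called gene totals numbered 1, with 4 by DESeq2, 10 by edgeR's exact test, 0 by limma-voom (629 at an unadjusted p under 0.05), 0 by library size alone (586), 3 without a filter and 16 to 84 with 1 library left out, the 84 without irradiated library 1. Called transcripts were 0 (1306 unadjusted), 248 by DESeq2 and 299 by the exact test. Genes with changed isoform usage were 16, with 8 without a filter, 58 by the F test, 0 by limma's diffSplice (505 unadjusted) and 1 to 29 with 1 library left out, an alternative chosen after seeing the data. The cause was not tested. No source states that a replicate number marks 1 of the 2 experiments, and the deviations of same-numbered libraries correlated at 0.098 over genes. With the replicate block 7 gene totals, 0 transcripts (690 unadjusted) and 3 genes of isoform usage passed, and Zfp296 had an adjusted p of 0.431 there (edgeR). Leaving out a library leaves 1 in its group, assumed to vary like the other group.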
